A study of Mus musculus with 4 samples.

Results

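The 40 genes described here act in cholesterol and fatty acid metabolism. They were taken by gene symbol from a list of known enzymes, regulators and transporters, and all 40 were found among the 16142 genes of the deposited expression table. By role they comprised 8 enzymes of the mevalonate steps, 10 enzymes of the later sterol steps, 6 genes of sterol sensing and control, 6 genes of cholesterol efflux and its regulation, 8 genes of fatty acid synthesis and 2 genes that direct lipids to oxidation or storage. RNA-seq had been performed on CD4+ T cells, in 2 WT and 2 R111A libraries. WT cells came from B6 mice, and R111A cells came from Cd4CreERT2 LSL-R111A fl/fl mice, in which a Cre recombinase activated by tamoxifen in Cd4-expressing cells removes a STOP cassette in front of a transgene. The transgene lies in the Rosa26 locus under a CAG promoter and encodes a Regnase-1 with the MALT1 cleavage site changed, followed by EGFP. Tamoxifen was given at 75 mg/kg for 5 days, and it is not clear from the labels whether the WT mice of these libraries received it. Mice of both sexes aged 6 to 12 weeks on a C57BL/6 background were used in general, and the labels do not give the age or sex behind each library. CD4+ T cells from spleen were purified by beads and by FACS, and then received anti-CD3 (5 µg/mL) with anti-CD28 (1 µg/mL) over 12 h, so that all 4 libraries are of stimulated cells. WT cells lack both the Cre and the transgene, and their effects cannot be told apart from that of the mutant protein. The labels do not state that the 2 libraries of a group came from separate animals, so p-values measure only the spread between these libraries, which may be technical.

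Cells make cholesterol from acetyl-CoA through mevalonate, squalene and lanosterol. When sterols in the endoplasmic reticulum are scarce, SCAP carries the SREBP transcription factors to the Golgi for cleavage, and they switch on synthesis and uptake genes; when sterols are plentiful, INSIG proteins hold SCAP back. Oxysterols activate the LXR receptors, which switch on transporters that move cholesterol out of the cell, and SREBP-1 favours genes of fatty acid synthesis. T cells that prepare to divide need new membrane, and activation is known to raise sterol and fatty acid synthesis in them while LXR target genes are held down.

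Values are FPKM, read counts divided by transcript length and library size, and the files do not show how many reads a value rests on. The column total was 801475.0 FPKM for the first WT library and 836142.6 FPKM for the second, against 1053551.3 FPKM for the first R111A library and 1012214.9 FPKM for the second. Relative to WT replicate 1, the depth read from steps among low values was 1.0 in WT replicate 2, 0.98 in R111A replicate 1 and 0.85 in R111A replicate 2. Zc3h12a, which encodes Regnase-1 and is carried by the transgene, measured 16.97 and 15.72 FPKM in the WT libraries and 196.3 and 130.87 FPKM in the R111A libraries. Both R111A libraries were far above both WT libraries, as their labels state. The R111A replicates differed more from each other than the WT replicates did. For 1938 abundant genes (mean 50 FPKM or more), the scaled median absolute deviation of log2 ratios was 0.319 within R111A and 0.126 within WT. Of the markers that define the sorted cells, Cd4 measured 157.54 and 131.28 FPKM in WT and 70.69 and 51.35 FPKM in R111A, and Cd8a was at most 0.20 FPKM in each library.

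Among the genes tested, 4 of 5 efflux genes rose (3 of 4 without Abca1, which could be tested only because it was high in R111A), 5 of 6 fatty acid synthesis genes fell and 8 of 18 sterol synthesis genes fell in R111A against WT cells at the adjusted p by limma with Benjamini-Hochberg adjustment, where 21.2% of all genes tested rose and 32.1% fell. Differences were tested with limma on log2(FPKM + 1) in 9831 genes whose mean reached 1 FPKM, and a fold change on this scale understates that of genes with low values. Of the 40 members, 37 passed that filter, and Scd1, Fads2 and Nr1h3 did not. By limma with Benjamini-Hochberg adjustment at an adjusted p under 0.05, 16 of the 37 (43.2%) fell in R111A, against 32.1% of all genes tested, and 6 (16.2%) rose, against 21.2% of all genes. With a 2-fold change required as well, 4 members (10.8%) fell, against 8.34% of all genes, and 5 (13.5%) rose, against 8.52%. Without genes that passed the filter through 1 group only, of the members Abca1, 16 of 36 (44.4%, against 32.3% of all such genes) fell at the adjusted p. Of these 36, 5 (13.9%, against 19%) rose. At both thresholds 4 (11.1%, against 8.09%) fell and 4 (11.1%, against 6.39%) rose. The median log2 fold change over the tested members was -0.31, and over all genes tested it was -0.12. Both R111A libraries lay below both WT libraries in 22 of the 37 members (59.5%; 46.3% of all genes tested) and above them in 7 (18.9%; 32% of all genes tested). With 2 libraries in each group, an exact two-sided permutation test of 1 gene cannot go below p = 0.333, so every call rests on the spread that limma pools over genes. Without WT replicate 1 the count of members that fell was 6 and without WT replicate 2 it was 8, each in a fit where the lone WT library is assumed to vary like the R111A libraries, and rescaled to TPM (each library brought to the same sum) it was 23, with 5 that rose. Over all genes tested, fewer were called lower as well when either WT library was left out. In TPM 5128 of 9891 genes tested fell and 1337 rose, against 3152 and 2088 in FPKM. Over all members the counts lay near those of the whole table, and the differences lay between the roles.

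**Figure D1:**
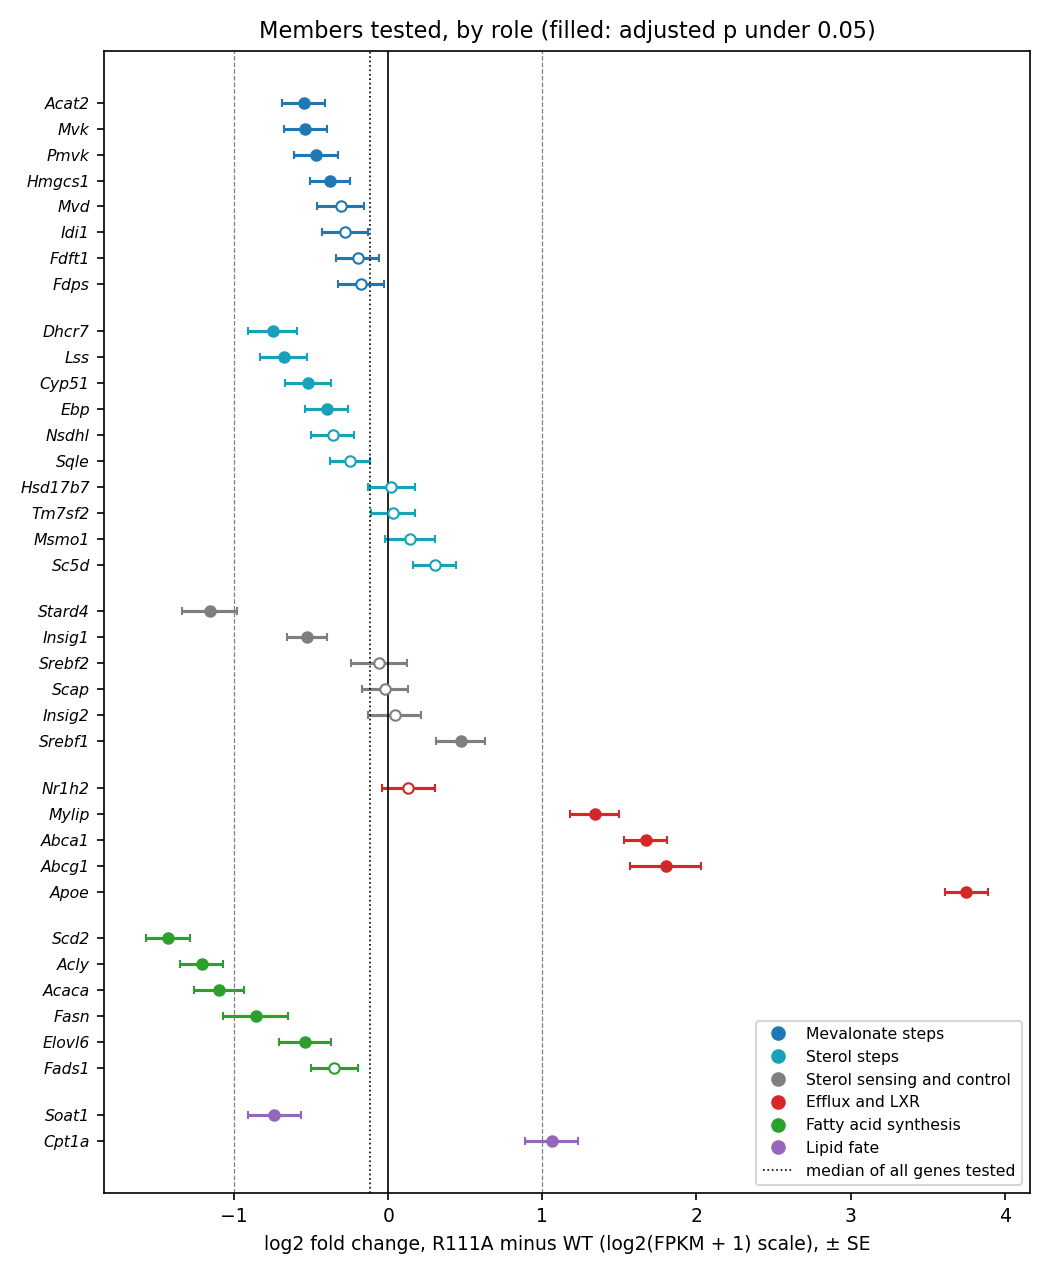
Log2 fold change of R111A minus WT on the log2(FPKM + 1) scale for the 37 members tested, grouped and coloured by role, with 2 libraries in each group. Bars are the SE from limma, filled points have an adjusted p under 0.05, dashed lines mark a 2-fold change and the dotted line marks the median of all genes tested (-0.12). Apoe lies farthest to the right at 3.75 and Scd2 farthest to the left at -1.43; the order of the points near 0, Nr1h2 among them, changes with the scaling of the values.

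Efflux genes gave the largest differences among the members. Apoe (chr7:19696244-19701310, GRCm38) encodes apolipoprotein E, a secreted carrier that takes up cholesterol leaving the cell. It measured 5.45 and 6.48 FPKM in WT and 89.09 and 96.15 FPKM in R111A. Its mean was 15.5 times higher in R111A, and the 2 groups were far apart. The log2 fold change was 3.75 ± 0.14 (SE), with an adjusted p of 2.7e-06 by limma with Benjamini-Hochberg adjustment, and both R111A libraries were higher. In WT cells the Apoe level was close to that of Insig2 (5.96 and 6.12 FPKM), a minor transcript, whereas in R111A cells it was among the highest of all members, beside Idi1 (79.56 and 100.43 FPKM), Srebf2 (89.90 and 61.82 FPKM) and Nr1h2 (90.11 and 64.25 FPKM).

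Abca1 (chr4:53030789-53159988) encodes the transporter that loads cholesterol and phospholipid onto apolipoproteins poor in lipid. It was nearly silent in WT, at 0.16 and 0.13 FPKM, and measured 2.48 and 2.81 FPKM in R111A. It passed the filter on low values only through the R111A libraries, so that it had to differ to be tested. Abcg1 (chr17:31057694-31117984), which encodes a transporter that passes cholesterol to lipoprotein particles, measured 1.72 and 1.00 FPKM in WT and 9.06 and 5.59 FPKM in R111A. The groups did not overlap for either transporter, although the replicates of Abcg1 differed within both groups. By limma with Benjamini-Hochberg adjustment, the log2 fold change was 1.67 ± 0.14 for Abca1 (adjusted p = 3.5e-05) and 1.80 ± 0.23 for Abcg1 (adjusted p = 0.00031). Mylip (chr13:45389742-45411940) encodes a ubiquitin ligase that marks lipoprotein receptors for breakdown and so limits cholesterol uptake. It measured 3.68 and 3.5 FPKM in WT and 11.91 and 9.45 FPKM in R111A. Both R111A libraries stood above both WT libraries, with a log2 fold change of 1.34 ± 0.16 (limma, Benjamini-Hochberg adjusted p = 0.0002).

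Apoe, Abca1, Abcg1 and Mylip are all known LXR targets, and the genes of the LXR receptors were read beside them. Nr1h2, which encodes LXR-beta, was the abundant receptor gene at 68.10 and 70.56 FPKM in WT and 90.11 and 64.25 FPKM in R111A. The groups overlapped, and the difference did not pass the test (log2 fold change 0.13 ± 0.17; limma with Benjamini-Hochberg adjustment, adjusted p = 0.53); it was below 0 after rescaling to TPM. Nr1h3, which encodes LXR-alpha, measured 0.12 and 0.36 FPKM in WT and 1.27 and 1.30 FPKM in R111A. Its libraries did not overlap, but its mean was under the filter, and with no filter its log2 fold change was 0.89 with an adjusted p of 0.0076 by limma with Benjamini-Hochberg adjustment. Even in R111A cells the LXR-alpha transcript was far below that of LXR-beta. The 5 efflux genes tested had a median log2 fold change of 1.67, where that of all genes tested was -0.12. Past both thresholds 4 of 5 rose (80%, against 8.52% of all genes). Abca1, which passed the filter only through R111A, is itself the median of 1.67. The other 4 genes tested had a median of 1.57, and 3 of them rose past both thresholds. Without genes that passed the filter through 1 group only, 6.39% of all genes did so. Apoe, Abcg1 and Mylip passed both thresholds without each of the 4 libraries in turn, and Abca1 passed them without each library except R111A replicate 2, where its mean was under the filter and it was not tested. Nr1h2 passed the adjusted p without R111A replicate 2 (log2 fold change 0.37; limma with Benjamini-Hochberg adjustment, adjusted p = 0.011, from 0.011 to 0.79 over the 4 fits that leave out a library), and its log2 fold change was -0.11 without R111A replicate 1, so that it depends on which R111A library is used.

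**Figure D2:**
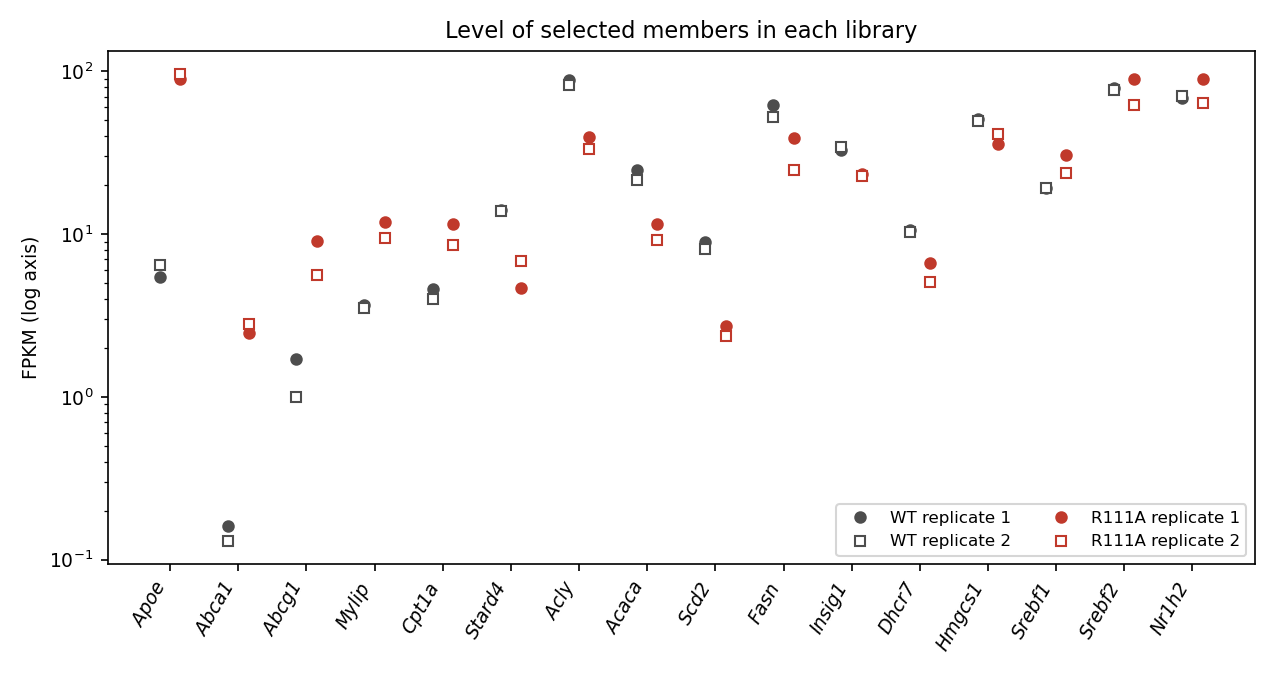
FPKM on a log axis for 16 members in each of the 4 libraries, with WT in grey and R111A in red, replicate 1 as filled circles and replicate 2 as open squares. Apoe, Abca1, Abcg1, Mylip, Cpt1a and Srebf1 are higher in both R111A libraries; Stard4, Acly, Acaca, Scd2, Fasn, Insig1, Dhcr7 and Hmgcs1 are lower in both; the groups overlap for Srebf2 and Nr1h2.

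Apoe and Abca1 are also strongly expressed by macrophages, and a list of 13 myeloid markers was therefore read in the same libraries. The markers summed to 2.9 and 1.6 FPKM in WT and to 13.9 and 11.4 FPKM in R111A. Of the 13, 6 were higher in both R111A libraries, 1 was lower in both and 6 overlapped. Over all genes tested, 32% were higher in both R111A libraries and 46.3% lower, but only 2 of the 13 markers passed the filter. The most abundant was Cd68, a lysosomal protein gene, at 1.54 and 0.78 FPKM in WT and 8.89 and 6.81 FPKM in R111A, followed by Lyz2, which encodes lysozyme, at 0.45 and 0.00 FPKM in WT and 3.01 and 2.37 FPKM in R111A. Markers that define macrophages differed among themselves. Adgre1, which encodes F4/80, measured 0.04 FPKM in both WT libraries and 0.77 and 1.04 FPKM in R111A, and Itgam measured 0.00 and 0.03 FPKM in WT and 0.54 and 0.39 FPKM in R111A. Mpeg1, which encodes a pore protein of macrophages, was lower in both R111A libraries, at 0.37 and 0.33 FPKM against 0.70 and 0.73 FPKM in WT, and with no filter its adjusted p was 0.011 (limma, Benjamini-Hochberg). Csf1r, the receptor for their growth factor, was at most 0.07 FPKM, and C1qa, C1qb, Spic and Fcgr1 were at 0 in all 4 libraries. The other marker lists differed too, although the cells had been sorted. The 6 erythroid markers summed to 0.7 FPKM in both WT libraries and to 12.9 and 13.0 FPKM in R111A, nearly all from Hba-a1, with Hbb-bs and Hba-a2 at 0 in each library. The 4 NK cell markers, mostly Eomes, summed to 0.9 and 0.8 FPKM in WT and to 7.3 and 4.9 FPKM in R111A, and the 6 B cell markers to 2.1 and 1.0 FPKM in WT and to 5.1 and 4.5 FPKM in R111A, with Pax5 at most 0.06 FPKM. Lower in R111A were the sums of the T cell markers (1405.9 and 1258.3 FPKM, against 1685.5 and 1674.1 FPKM in WT), of the 2 CD8 T cell markers (3.9 and 4.5 FPKM, against 7.3 and 6.8 FPKM in WT) and of the 3 Treg markers (11.2 and 10.5 FPKM, against 19.1 and 16.2 FPKM in WT). Single genes of these lists went the other way: Cd3d was higher in both R111A libraries, and of the Treg markers Foxp3 alone was lower in both, at 2.86 and 1.86 FPKM against 11.31 and 8.78 FPKM in WT, while Ikzf4 was higher in both and Ikzf2 overlapped. Fewer cells of a type and less RNA per cell cannot be told apart in such libraries. The part of these transcripts in the higher efflux genes was not tested.

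Fatty acid synthesis genes were the role group with the clearest lower values in R111A. Acly (chr11:100476352-100528000) encodes ATP citrate lyase, which makes cytosolic acetyl-CoA from citrate for both fatty acids and sterols. It measured 88.75 and 82.12 FPKM in WT and 39.27 and 33.45 FPKM in R111A. Acaca (chr11:84129635-84401651), which encodes the acetyl-CoA carboxylase that forms malonyl-CoA, measured 24.80 and 21.60 FPKM in WT and 11.46 and 9.23 FPKM in R111A. For both enzymes the R111A libraries lay near each other and well under the WT libraries. By limma with Benjamini-Hochberg adjustment, Acly fell by 1.21 ± 0.14 on the log2 scale (adjusted p = 0.00017) and Acaca fell by 1.10 ± 0.16 (adjusted p = 0.00058). The Acaca log2 fold change was under 2-fold without R111A replicate 2, at -0.95. Scd2 (chr19:44293676-44306864) encodes a stearoyl-CoA desaturase that puts the double bond into saturated acyl chains. It measured 8.93 and 8.08 FPKM in WT and 2.71 and 2.36 FPKM in R111A, and fell by 1.43 ± 0.14 (limma, Benjamini-Hochberg adjusted p = 9.3e-05). Scd2 gave the largest decrease among the 37 members tested, and both R111A libraries were lower. With a pseudocount of 5 FPKM its log2 fold change was -0.84, against -1.13 for Acly and -0.88 for Acaca. Without R111A replicate 2 it was -1.36, against -1.4 for Stard4, so that its rank depends on the setting.

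Its paralog Scd1 was at most 0.06 FPKM in each library, so that of this pair only Scd2 passed the filter. Fasn, the multifunctional synthase that builds palmitate, measured 62.51 and 52.32 FPKM in WT and 38.97 and 24.79 FPKM in R111A. The groups did not overlap, but the 2 R111A libraries differed widely (the log2 fold change was -1.17 without R111A replicate 1 and -0.54 without R111A replicate 2), and the decrease of 0.86 ± 0.21 passed the adjusted p alone (log2 fold change -0.86; limma, Benjamini-Hochberg adjusted p = 0.0082); with no filter on low values the adjusted p was 0.057, in a range from 5.6e-07 to 0.057 over the alternatives that keep all libraries. Elovl6, which lengthens palmitate to stearate, also fell by the adjusted p alone, from 3.58 and 3.43 FPKM in WT to 1.69 and 2.59 FPKM in R111A. Its groups did not overlap, and the call was lost with no filter, without WT replicate 1 (log2 fold change -0.51) and without WT replicate 2 (-0.56). Fads1, a desaturase of polyunsaturated chains, measured 5.81 and 5.10 FPKM in WT and 4.29 and 3.81 FPKM in R111A and did not pass the test except in TPM and without R111A replicate 1 (log2 fold change -0.42), and Fads2, its partner in that path, was at most 0.19 FPKM. Of the 6 fatty acid genes tested, 5 (83.3%, against 32.1% of all genes) fell at the adjusted p by limma with Benjamini-Hochberg adjustment. At both thresholds 3 (50%, against 8.34%) fell. At the adjusted p 0 rose (against 21.2%), as at an unadjusted p under 0.05 (against 23.6%). The median of these 6 log2 fold changes was -0.98, where that of all genes tested was -0.12. The summed level of the 8 genes was 194.6 and 172.8 FPKM in WT and 98.5 and 76.3 FPKM in R111A.

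Sterol synthesis differed less. The 18 enzyme genes listed, which are not every enzyme of the pathway, were all tested, with the highest levels at Idi1, the isomerase that makes dimethylallyl pyrophosphate, and Fdps, the farnesyl pyrophosphate synthase, and the lowest at Tm7sf2, a sterol reductase, which measured 2.28 and 2.22 FPKM in WT and 2.28 and 2.37 FPKM in R111A. Of the 18 enzymes, 8 (44.4%) fell and 0 rose at the adjusted p by limma with Benjamini-Hochberg adjustment, 9 fell and 0 rose at an unadjusted p under 0.05, and 0 reached a 2-fold change in either direction, while in TPM 1 did, Dhcr7 at -1.05. The median log2 fold change was -0.34, which is 0.22 below that of all genes tested, and in 13 of the 18 (72.2%) each R111A library lay under each WT library. Over all genes tested, 32.1% fell and 21.2% rose at the adjusted p by limma with Benjamini-Hochberg adjustment, 35.8% fell and 23.6% rose at an unadjusted p under 0.05, and 46.3% had both R111A libraries under both WT libraries. The count depended on which libraries were used: without WT replicate 1 a single enzyme passed and without WT replicate 2 there were 2, whereas 11 fell and 1 rose without R111A replicate 1 and 10 fell without R111A replicate 2. In each of these fits the lone library of a group is assumed to vary like the libraries of the other group. The count of all genes called lower moved the same way, down without either WT library and up without either R111A library. The scaling moved the count as well: 6 fell and 1 rose under median-of-ratios factors, 4 fell and 1 rose under quantile normalization, and 5 fell with no filter. Rescaled to TPM, 14 of the 18 fell, and the median of all genes moved by -0.30 as well, to -0.42.

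In the mevalonate steps, 4 of 8 enzymes (50%, against 32.1% of all genes) fell by limma with Benjamini-Hochberg adjustment. They were Acat2, the thiolase that joins acetyl-CoA units, Hmgcs1, the HMG-CoA synthase, and the mevalonate kinases Mvk and Pmvk. Acat2 measured 14.18 and 12.82 FPKM in WT and 9.17 and 8.57 FPKM in R111A, with a log2 fold change of -0.55 ± 0.14 (limma, Benjamini-Hochberg adjusted p = 0.01). Its decrease and that of Mvk (-0.54) were the largest of this group. Their order turned under quantile normalization, at -0.48 for Acat2 and -0.5 for Mvk. Hmgcs1 measured 51.29 and 49.42 FPKM in WT and 35.79 and 41.36 FPKM in R111A (log2 fold change -0.38 ± 0.13; limma, Benjamini-Hochberg adjusted p = 0.042). The groups did not overlap for Acat2 or Hmgcs1, and the Hmgcs1 call was lost with no filter, under median-of-ratios factors and under quantile normalization (limma with Benjamini-Hochberg adjustment, between 0.0013 and 0.26 for the adjusted p in alternatives with all libraries). The Pmvk call was lost under quantile normalization too, where its log2 fold change was -0.36. All 4 calls were lost when one or the other WT library was left out: the log2 fold changes without WT replicate 1 were -0.49 for Acat2, -0.35 for Hmgcs1, -0.48 for Mvk and -0.37 for Pmvk, and without WT replicate 2 they were -0.62, -0.41, -0.60 and -0.57. The later enzymes of these steps did not pass the test, with log2 fold changes of -0.31 for Mvd, -0.28 for Idi1, -0.20 for Fdft1 and -0.18 for Fdps, which was 0.08 under quantile normalization. All 4 passed it in TPM, with log2 fold changes of -0.61 for Mvd, -0.62 for Idi1, -0.52 for Fdft1 and -0.51 for Fdps, while Mvd also passed it without R111A replicate 1 (-0.45) and Idi1 without R111A replicate 2 (-0.45).

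In the sterol steps after squalene, Lss, Cyp51, Ebp and Dhcr7 fell by the adjusted p alone. Dhcr7, the reductase that makes cholesterol from 7-dehydrocholesterol, measured 10.62 and 10.31 FPKM in WT and 6.68 and 5.09 FPKM in R111A. Lss, which folds squalene epoxide into lanosterol, measured 9.90 and 8.35 FPKM in WT and 5.30 FPKM in both R111A libraries. In both genes each R111A library was under each WT library, with log2 fold changes of -0.75 ± 0.16 for Dhcr7 (adjusted p = 0.0044) and -0.68 ± 0.15 for Lss (adjusted p = 0.0046) by limma with Benjamini-Hochberg adjustment. Of the 18 synthesis enzymes, Dhcr7 alone had a call that held under every alternative run. The Lss call was lost without WT replicate 1 (log2 fold change -0.57), and those of Cyp51 and Ebp were lost without WT replicate 1 (-0.55 and -0.30) and without WT replicate 2 (-0.50 and -0.51). With all libraries kept, the Cyp51 and Ebp calls were lost with no filter and under quantile normalization, and that of Ebp under median-of-ratios factors as well. Sqle, the squalene epoxidase, measured 30.44 and 31.47 FPKM in WT and 26.83 and 24.86 FPKM in R111A and did not pass, except in TPM and without R111A replicate 1 (-0.31). Sc5d, which acts in the step before Dhcr7, stood against the others at 25.18 and 27.19 FPKM in WT and 30.03 and 35.08 FPKM in R111A; its log2 fold change of 0.30 ± 0.14 did not pass the test (limma, Benjamini-Hochberg adjusted p = 0.1) and was -0.02 under TPM. Sc5d passed it under median-of-ratios factors, under quantile normalization and without R111A replicate 1, with log2 fold changes of 0.39, 0.42 and 0.41. Nsdhl had a log2 fold change of -0.36 and did not pass with all libraries except in TPM (-0.67), and it passed when one or the other R111A library was left out, with the value of -0.36 in both fits. Msmo1, Tm7sf2 and Hsd17b7 lay between 0.02 and 0.14, with overlapping groups and with values below 0 under TPM and, for Tm7sf2, under quantile normalization.

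**Figure D3:**
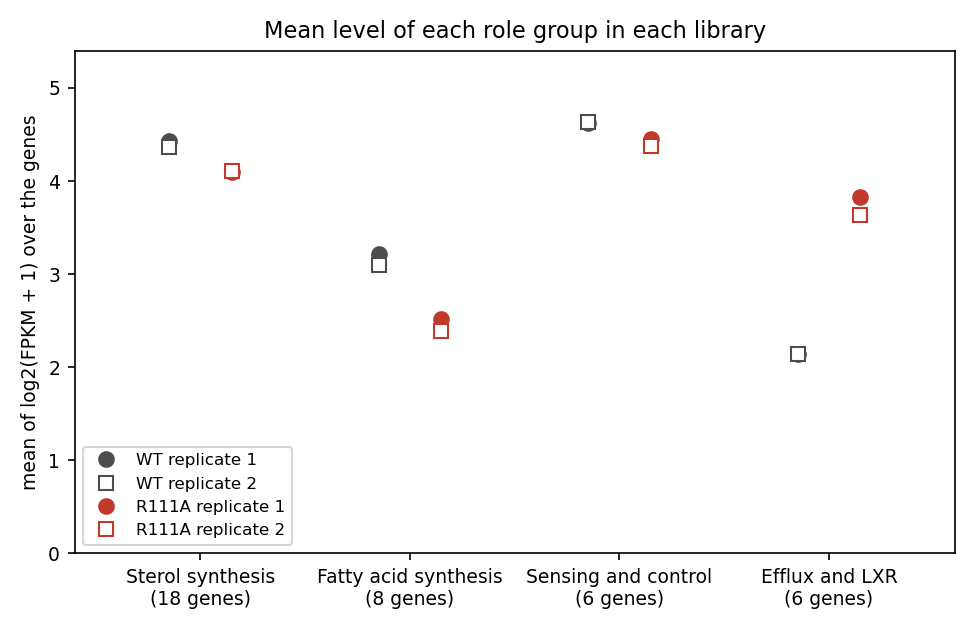
Mean of log2(FPKM + 1) over the genes of 4 role groups in each library, with WT in grey and R111A in red, replicate 1 as filled circles and replicate 2 as open squares. The efflux group moves from 2.14 in both WT libraries to 3.83 and 3.64 in the R111A libraries, while the sterol synthesis group moves from 4.43 and 4.37 to 4.10 and 4.11.

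Synthesis and efflux were set side by side as the mean log2(FPKM + 1) of the 18 synthesis genes minus that of the 6 efflux genes in each library. This difference was 2.29 and 2.23 in WT and 0.26 and 0.46 in R111A. Both R111A libraries were therefore far below both WT libraries in this difference. The efflux mean includes Nr1h3, which was under the filter, and Abca1, which passed it only through R111A. The size of the difference between the 2 groups of genes therefore depends on the genes included. The larger part of the shift was on the efflux side, whose mean was 2.14 in both WT libraries and 3.83 and 3.64 in R111A. Without Apoe, the gene with the largest change, the difference was 2.4 and 2.38 in WT and 0.79 and 1.06 in R111A. The order of the groups was the same under each scaling of the values: relative to the median of all genes, the median of the efflux genes was 1.78 higher in FPKM, 2.01 in TPM, 1.74 under median-of-ratios factors and 1.59 under quantile normalization. Without Abca1, which passed the filter only through R111A, it was 1.69, 1.75, 1.67 and 1.59 higher in the same order. The median of the synthesis genes relative to all genes was -0.22, -0.23, -0.22 and -0.19 in the same order, and that of the fatty acid genes was -0.86, -0.88, -0.86 and -0.81. Over all genes, 3152 were lower and 2088 higher at the adjusted p in FPKM, and 5128 were lower and 1337 higher in TPM (limma with Benjamini-Hochberg adjustment), so that counts of decreases depend on the scaling more than these relative medians do.

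**Figure D4:**
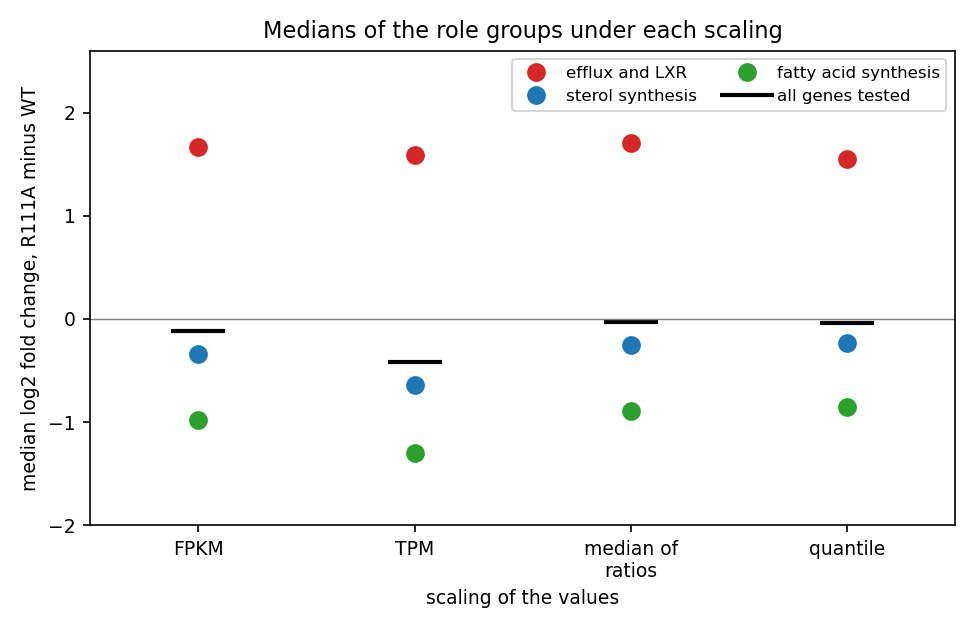
Median log2 fold change of R111A minus WT over the tested efflux (red), sterol synthesis (blue) and fatty acid synthesis (green) genes under 4 scalings of the values, with the median of all genes tested as a black bar. The efflux median lies between 1.55 and 1.71 and the fatty acid median between -1.30 and -0.85, while the synthesis median follows the median of all genes at a distance between -0.23 and -0.19; the efflux points include Abca1, and without it the median lies between 1.33 and 1.64.

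Of the 6 genes of sterol sensing and control, 2 (33.3%) fell and 1 (16.7%) rose at the adjusted p (limma, Benjamini-Hochberg). Over all genes tested, 32.1% fell and 21.2% rose. Stard4, which encodes a carrier that moves cholesterol between membranes and is itself a SREBP target, measured 14.13 and 13.82 FPKM in WT and 4.68 and 6.87 FPKM in R111A. Both R111A libraries were clearly under both WT libraries, and the decrease of 1.16 ± 0.18 on the log2 scale passed both thresholds (log2 fold change -1.16; limma, Benjamini-Hochberg adjusted p = 0.00082), though it was under 2-fold without R111A replicate 1, at -0.93. Insig1, whose product retains SCAP in the endoplasmic reticulum and which is a SREBP target too, measured 32.69 and 34.53 FPKM in WT and 23.38 and 22.60 FPKM in R111A, with a log2 fold change of -0.53 ± 0.13 (limma, Benjamini-Hochberg adjusted p = 0.0087). Its groups did not overlap, and its call was lost without WT replicate 1 (-0.57) and without WT replicate 2 (-0.49). Insig2, which has the same function, measured 5.96 and 6.12 FPKM in WT and 5.19 and 7.45 FPKM in R111A, and its groups overlapped.

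Srebf2, which encodes the SREBP that drives sterol synthesis, measured 79.24 and 76.46 FPKM in WT and 89.90 and 61.82 FPKM in R111A. Scap measured 37.08 and 38.24 FPKM in WT and 42.40 and 32.60 FPKM in R111A. In both genes the WT libraries lay between the 2 R111A libraries, and neither passed the test with all libraries, while without R111A replicate 1 Srebf2 passed it as lower (log2 fold change -0.33). Srebf1, which encodes SREBP-1 and is a known LXR target, measured 19.07 and 19.15 FPKM in WT and 30.60 and 23.57 FPKM in R111A. Both R111A libraries were higher, and it rose by the adjusted p alone (log2 fold change 0.47 ± 0.16; limma, Benjamini-Hochberg adjusted p = 0.032). That call was lost under TPM, where the log2 fold change was 0.15 and the adjusted p was 0.42 by limma with Benjamini-Hochberg adjustment, from 0.01 to 0.42 over the alternatives that keep all libraries. It was also lost with no filter and when one or the other WT library was left out, where the log2 fold change was 0.47 as before. The Srebf1 transcript was thus not lower in R111A. The part of SREBP-1 in the lower values of the fatty acid genes was not tested.

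Cpt1a and Soat1, which direct lipids within the cell, moved in opposite directions. Cpt1a (chr19:3322326-3385735) encodes the enzyme that admits long acyl chains to mitochondria for oxidation, and malonyl-CoA, the product of the enzyme encoded by Acaca, is its known inhibitor. It measured 4.57 and 3.97 FPKM in WT and 11.58 and 8.53 FPKM in R111A, so that both R111A libraries were above both WT libraries. Its log2 fold change was 1.06 ± 0.17 (limma, Benjamini-Hochberg adjusted p = 0.0012) and was under 2-fold in TPM, at 0.78, without WT replicate 2, at 0.98, and without R111A replicate 1, at 0.86. Soat1, which esterifies cholesterol for storage, measured 8.02 and 6.12 FPKM in WT and 3.52 and 4.11 FPKM in R111A, and fell by the adjusted p alone (log2 fold change -0.74 ± 0.17; limma, Benjamini-Hochberg adjusted p = 0.0057). The Soat1 groups did not overlap, and its call was lost without WT replicate 1 (-0.57).

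A further 75 genes of these pathways, listed by role, were read beside the members, and 63 of them were tested. The lists do not hold every gene of these pathways, and values of 4 genes outside them were also seen and are not used here. By limma with Benjamini-Hochberg adjustment, 24 (38.1%, against 32.1% of all genes) fell and 10 (15.9%, against 21.2%) rose at the adjusted p, so that these shares lay near those of the whole table. At both thresholds 9 (14.3%, against 8.34%) fell and 2 (3.17%, against 8.52%) rose, and their median log2 fold change was -0.27. Of these genes, Lrp8 and Mgll, a lipase gene named here for this reason alone, were called lower and passed the filter only through WT. Without genes that passed it through 1 group only, 22 of 61 (36.1%, against 32.3% of all such genes) fell and 10 (16.4%, against 19%) rose at the adjusted p, 8 (13.1%, against 8.09%) fell at both thresholds, and the median was -0.18. Among 9 tested genes of sterol uptake and transfer, 3 fell past both thresholds, while others rose by the adjusted p alone (limma, Benjamini-Hochberg). Scarb1, the receptor for high-density lipoprotein, measured 21.22 and 20.75 FPKM in WT and 5.15 and 4.90 FPKM in R111A. Lrp8, a receptor that binds apolipoprotein E, measured 3.09 and 3.32 FPKM in WT and 0.42 and 0.60 FPKM in R111A. Lipa, the lysosomal lipase that frees cholesterol from esters taken up with lipoproteins, measured 8.59 and 8.5 FPKM in WT and 3.82 and 3.01 FPKM in R111A. These 3 uptake genes were lower in both R111A libraries, with log2 fold changes of -1.87, -1.48 and -1.12, and that of Lipa was -0.99 without R111A replicate 2. Lrp8 had a mean under 1 FPKM in R111A and passed the filter only through WT, so that it had to differ to be tested. Without it, 2 of 8 genes fell past both thresholds and the median was 0.09. Stard3 and Gramd1a, named after their values were seen, encode proteins that move sterol between membranes and rose, with log2 fold changes of 0.81 and 0.93. The uptake and transfer genes thus did not move one way, and their median with Lrp8 was -0.04.

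**Figure D5:**
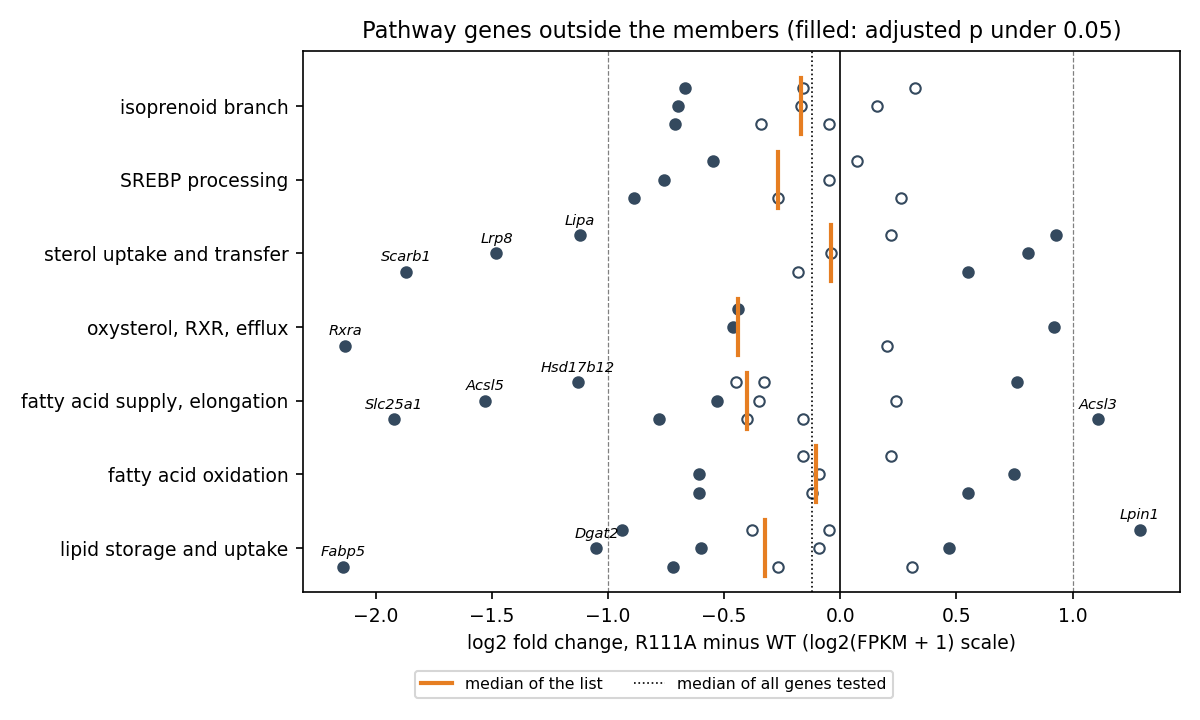
Log2 fold change of R111A minus WT on the log2(FPKM + 1) scale for the 63 tested pathway genes outside the members, by list. Filled points have an adjusted p under 0.05 by limma, names mark the 11 genes past both thresholds, orange bars are list medians, dashed lines mark a 2-fold change and the dotted line marks the median of all genes tested; 9 of the named genes lie to the left and 2, Acsl3 and Lpin1, to the right.

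Rxra, which encodes 1 of the RXR partners of the LXR receptors, measured 8.55 and 8.36 FPKM in WT and 1.48 and 0.88 FPKM in R111A (log2 fold change -2.13 ± 0.17; limma, Benjamini-Hochberg adjusted p = 2.9e-05). It was lower in both R111A libraries, against the direction of the efflux genes. Rxrb, another partner, named after its values were seen, was more abundant, at 32.22 and 34.35 FPKM in WT and 25.66 and 22.24 FPKM in R111A. Its log2 fold change of -0.46 passed the adjusted p by limma with Benjamini-Hochberg adjustment, but not under median-of-ratios factors (-0.37), under quantile normalization (-0.36), without WT replicate 1 (-0.51) or without WT replicate 2 (-0.42). Both belong to a list of oxysterol and efflux genes, of which 5 of 8 were tested, 3 (60%) fell and 1 (20%) rose at the adjusted p (limma, Benjamini-Hochberg), with a median of -0.44. The one that rose, Abca7, a transporter gene named after its values were seen, had a log2 fold change of 0.92. Among the 13 tested genes of fatty acid supply and elongation, 5 (38.5%) fell and 2 (15.4%) rose at the adjusted p (limma, Benjamini-Hochberg), against 32.1% and 21.2% of all genes. Slc25a1, the carrier that exports citrate from mitochondria to the enzyme encoded by Acly, measured 45.59 and 48.60 FPKM in WT and 11.94 and 11.44 FPKM in R111A. Acsl5, which links fatty acids to coenzyme A, measured 139.66 and 139.98 FPKM in WT and 44.78 and 51.12 FPKM in R111A, while Acsl3, of the same family, measured 6.05 and 5.64 FPKM in WT and 12.14 and 15.65 FPKM in R111A. These genes separated the groups without overlap, Acsl3 upward and the other two downward, as did Hsd17b12, an enzyme of chain elongation, which measured 96.50 and 98.82 FPKM in WT and 41.58 and 46.84 FPKM in R111A. Acsl3 was under 2-fold in TPM (log2 fold change 0.82) and without R111A replicate 2 (0.94), and Hsd17b12 under quantile normalization (-0.92). In the list of lipid storage and uptake, Fabp5, which binds fatty acids in the cytosol, measured 148.98 and 154.97 FPKM in WT and 29.04 and 39.12 FPKM in R111A, and Dgat2, which completes triglycerides, measured 3.47 and 3.53 FPKM in WT and 1.5 and 0.89 FPKM in R111A. Dgat2 was under 2-fold under median-of-ratios factors (log2 fold change -0.99) and without R111A replicate 2 (-0.85). Lpin1, a phosphatidate phosphatase, rose from 1.26 and 1.29 FPKM in WT to 5.08 and 4.12 FPKM in R111A. The 8 tested genes of fatty acid oxidation, in contrast, had 2 (25%) that fell and 2 (25%) that rose at the adjusted p by limma with Benjamini-Hochberg adjustment, with a median of -0.11 close to that of all genes.

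The sequence before the start of the members was read to see what genes that moved together share. RefSeq windows of 250 bases before to 50 bases after a gene start (GRCm38.p6) were matched by symbol for 32 of the 40 members, in 43 windows. The other members were Fdps, Fdft1, Sqle, Stard4, Abcg1, Scd1, Scd2 and Fads1. On both strands, 3 motifs were searched: TCACNCCAC, a narrow form of the sterol regulatory element that SREBP binds, CCAAT, the box that NF-Y binds, and GGGCGG, the GC box that SP1 binds. CCAAT lay in a window of 14 of the 15 synthesis genes with a window (93.3%), against 43.7% of the tested genes and 41.1% of all genes with a window. It lay in 1 of 5 efflux genes (20%), namely Mylip, in 2 of 5 fatty acid genes (40%) and in 4 of 5 genes of sensing and control (80%). GGGCGG lay in 14 of the 15 synthesis genes (93.3%), against 70.1% of the tested genes and 38.2% of all genes with a window, in 2 of 5 efflux genes (40%), in 2 of 5 fatty acid genes (40%) and in 5 of 5 genes of sensing and control (100%). TCACNCCAC lay in 1 of 32 members (3.12%), Hmgcs1, against 1.32% of the tested genes and 1.44% of all genes with a window. No other form of that element was searched, so this is not the share of members with a SREBP site.

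The 140 bases before the start of 6 members are given below in 5′ to 3′ direction on the strand of the gene, with each match to a motif on either strand in capitals. They were chosen, with the matches known, among called members whose stretch lies outside the annotated gene, of which Pmvk, Dhcr7, Elovl6, Insig1 and Soat1 are not shown. There are 4 synthesis genes, Acat2 at chr17:12960726-12960865 on the minus strand, Hmgcs1 at chr13:119690211-119690350 on the plus strand, Cyp51 at chr5:4104698-4104837 on the minus strand and Ebp at chrX:8193513-8193652 on the minus strand, then Acly of fatty acid synthesis at chr11:100528001-100528140 on the minus strand, and Mylip of the efflux group at chr13:45389602-45389741 on the plus strand.
Acat2: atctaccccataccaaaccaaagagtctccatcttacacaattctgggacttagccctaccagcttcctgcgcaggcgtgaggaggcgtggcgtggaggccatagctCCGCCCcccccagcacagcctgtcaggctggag
Hmgcs1: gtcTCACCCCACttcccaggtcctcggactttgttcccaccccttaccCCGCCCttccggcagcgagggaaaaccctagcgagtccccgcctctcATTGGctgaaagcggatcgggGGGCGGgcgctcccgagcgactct
Cyp51: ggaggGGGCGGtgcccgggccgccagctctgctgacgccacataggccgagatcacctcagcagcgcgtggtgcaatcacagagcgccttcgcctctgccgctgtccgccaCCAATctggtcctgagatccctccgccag
Ebp: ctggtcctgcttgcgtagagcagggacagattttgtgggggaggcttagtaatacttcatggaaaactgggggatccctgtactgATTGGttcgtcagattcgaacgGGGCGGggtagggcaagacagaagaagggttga
Acly: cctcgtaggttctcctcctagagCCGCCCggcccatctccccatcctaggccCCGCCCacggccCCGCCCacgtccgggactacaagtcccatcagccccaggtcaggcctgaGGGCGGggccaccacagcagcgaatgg
Mylip: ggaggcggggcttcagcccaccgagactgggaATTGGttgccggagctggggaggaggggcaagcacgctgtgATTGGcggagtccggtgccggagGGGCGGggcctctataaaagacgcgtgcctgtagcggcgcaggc
Acat2, a mevalonate gene that fell, has no CCAAT in its window. Counted from the gene start, the TCACNCCAC match of Hmgcs1 begins at -137, its CCAAT match, which reads ATTGG on this strand, at -45 and its GGGCGG matches at -92 and -24. The CCAAT matches of Cyp51 and Ebp begin at -29 and -55, whereas the stretch of Acly holds 4 GGGCGG matches and no CCAAT, although its longer window holds 1. Mylip, which rose, has CCAAT matches at -108 and -67 and a GGGCGG match at -44. The longer windows hold 3 CCAAT matches for Mylip, 4 for Hmgcs1 and 2 for Ebp, and 3 GGGCGG matches for Hmgcs1. The CCAAT box thus was found in an efflux gene that rose, Mylip, and, except for Acat2, in every called synthesis gene with a window. It was also found in the synthesis genes with a window that did not pass the test: Mvd, Idi1, Tm7sf2, Msmo1, Nsdhl, Hsd17b7 and Sc5d. The box therefore did not separate synthesis genes that fell from those that did not pass. No match overlaps another in these stretches.

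Reads of some members may be shared with other genes. In GENCODE vM21 annotation, Fdft1 shared 18.3% of its exon bases with Ctsb on the opposite strand, Fdps shared 26.7% with a gene model on its own strand and Tm7sf2 shared 12.1% with Vps51, and whether the counting used strand is not given in the sources used here. These 3 genes did not pass the test, but called members shared bases too. On the opposite strand, Hmgcs1 shared 12.1%, Lss 3.5% and Elovl6 0.5% with an antisense gene, Cyp51 3.8% with Akap9 and Srebf1 1.9% with Rai1. On their own strand, Srebf1 shared 1.2% and Scd2 1.1% with a miRNA gene. Of the 9 members past both thresholds, none shared exon bases with another protein-coding gene in that annotation.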

How the data were processed

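RNA-seq of stimulated CD4+ T cells was used, with 2 WT and 2 R111A libraries grouped by their labels. The authors aligned polyA reads to mm10 with Bowtie2 2.4.4, quantified them with RSEM 1.2.28 and deposited FPKM values, and 0 columns of per-sample values were left unused. Their DESeq2 test on counts could not be applied to FPKM. On the log2(FPKM + 1) scale they were fitted by limma 3.58.1 in R 4.3.3 (lmFit, eBayes with trend, Benjamini-Hochberg adjustment over 9831 genes whose mean reached 1 FPKM). Calls used an adjusted p under 0.05, alone and with a 2-fold change. Values were given in each library for members past both thresholds, the largest change of each role and the SREBP and LXR regulators, with further members named after their values were seen; pathway genes outside the members were named if past both thresholds. Members and lists, including markers of T, CD8 T, Treg, B, myeloid, NK and erythroid cells, were chosen with earlier results of these data known. The procedure was tested on simulated data with 2 ways of drawing gene variances, the second chosen after the first recovered fewer changed genes than aimed for. Of genes changed 1.5-fold, 0% were recovered under both. Of genes changed 2-fold, 46% were recovered under the first and 88% under the second. In these simulations 200 of 9831 genes were changed, whereas in the data 3152 were called lower and 2088 higher. With fewer changed genes the Benjamini-Hochberg adjustment is stricter, so these shares do not give the sensitivity reached in the data. Alternatives were other pseudocounts (0.1 and 5), no filter or a filter at 5 FPKM, TPM, median-of-ratios factors, quantile normalization, a replicate block, eBayes without trend or robust, and leaving out each library. Coordinates and promoter windows came from RefSeq GRCm38.p6, where 40 members were matched by gene ID for coordinates. Other steps used python 3.11.15 with numpy 2.4.6, pandas 2.3.3 and matplotlib 3.10.9.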

Additional observations from a re-analysis of the deposited data

How the results depend on the processing

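Of the 22 members called at the adjusted p, 10 kept their call and direction under each alternative in which they were tested, 15 did so under the alternatives that keep all 4 libraries, and 0 changed direction. The 11 pathway genes past both thresholds and Zc3h12a kept theirs at the adjusted p wherever they were tested (Lrp8, Rxra, Dgat2 and Lpin1 were not, with a filter at 5 FPKM), as did Stard3, Gramd1a and Abca7, while Rxrb lost its call under 4 of 14 alternatives. The 2-fold change was not always kept: with a pseudocount of 5 FPKM the log2 fold change was 0.79 for Acsl3, -0.46 for Dgat2, -0.69 for Lipa, -0.57 for Lrp8 and 0.61 for Lpin1, and Acsl3, Dgat2, Lipa and Hsd17b12 were under 2-fold in other alternatives as well. Members called lower numbered 16; leaving out a library gave between 6 and 21, with 6 without WT replicate 1 and 8 without WT replicate 2, where the lone library is assumed to vary like the other group. The count of all genes called lower moved the same way, down without either WT library and up without either R111A library. Members lower at both thresholds numbered 4, against 1 with a pseudocount of 5 FPKM and 7 in TPM. Those higher at both thresholds numbered 5, against 1 with a pseudocount of 5 FPKM and 3 with a filter at 5 FPKM, where fewer genes are tested. The synthesis median of -0.34 was -0.64 in TPM, -0.25 under median-of-ratios factors and -0.23 under quantile normalization. The efflux median of 1.67 was 2.35 with a pseudocount of 0.1 FPKM, 0.86 with one of 5 FPKM, 1.5 with no filter and 1.34 with a filter at 5 FPKM, and between 1.5 and 1.80 without 1 library; without Abca1 it was 1.57, and from 0.90 to 1.94 over the alternatives. The fatty acid median of -0.98 was -0.81 with a pseudocount of 5 FPKM, -0.70 with no filter, -1.16 with a filter at 5 FPKM and -1.30 in TPM, and between -1.21 and -0.85 without 1 library.

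The log2 fold changes that changed sign all belonged to members that did not pass the test. In TPM they were -0.21 for Tm7sf2, -0.18 for Msmo1, -0.28 for Hsd17b7, -0.02 for Sc5d, -0.25 for Insig2 and -0.20 for Nr1h2. Under quantile normalization they were 0.08 for Fdps, -0.08 for Tm7sf2, 0.18 for Srebf2 and 0.12 for Scap, and under median-of-ratios factors 0.03 for Srebf2 and 0.07 for Scap. Without 1 library the values ran from -0.02 to 0.30 for Msmo1, -0.08 to 0.12 for Hsd17b7, -0.33 to 0.21 for Srebf2, -0.20 to 0.17 for Scap, -0.19 to 0.26 for Insig2 and -0.11 to 0.37 for Nr1h2. Beyond the shift in scale, the cause was not tested. With the replicate number as a block, 37 of 37 members stayed on the same side of the threshold and 16 were lower and 6 higher; deviations of same-numbered libraries correlated at 0.111 over genes, and 2 pairs cannot show whether these libraries share more than a number.

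With no read counts, the precision of low values such as those of Abca1 in WT and of Nr1h3 is unknown, and 2 libraries a group limit what can be detected.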
